A study of Homo sapiens with 32 samples.

Results

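The 44 genes described here encode the machinery of DNA replication and the regulators that let a cell pass from G1 into S phase. They were picked by symbol from a list of replication and G1/S genes, and all 44 were found among the 19345 genes of the expression table. They divide by role into 5 genes of origin licensing and its inhibitor, 12 of the replicative helicase, 6 of the polymerases and primase, 7 of the sliding clamp, its loader and lagging-strand maturation, 4 of nucleotide supply, 4 of G1/S control and 6 of chromatin, histone mRNA and checkpoint function. The cells were EPC2, a human esophageal epithelial line immortalized with hTERT and labelled WT in every library. Monolayer cells were taken at day 0 (D0), before 40000 of them were seeded per 20 µl droplet of Matrigel, where they grew into spheroids. The medium was keratinocyte serum-free medium, and CaCl2 was at 0.6 mM. The ROCK inhibitor Y27632 (10 µM) was present until the medium change at D3. From D3 to D11 the spheroids were left untreated or received IL-13 at 20 ng/ml. The table holds 6 libraries of IL-13-treated D11 spheroids, 7 of untreated D11 spheroids, 9 of D3 spheroids and 10 of monolayer cells. The libraries came from 2 experiments, labelled batch 2 and batch 1. The labels do not say whether libraries of 1 group and batch were separate cultures, so p-values measure the spread between these libraries, which may be technical.

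Before S phase, the origin recognition complex, CDC6 and CDT1 load the MCM2-7 ring onto origins, a step called licensing that geminin (GMNN) blocks once S phase has begun. CDC45 and the GINS complex then join the ring to form the active helicase, and the polymerases, held on DNA by the PCNA clamp, copy both strands. In stratified epithelia such as the esophagus, proliferation is a property of the basal layers, and cells that move upward leave the cycle as they differentiate. Many replication genes carry sites for the E2F family of transcription factors in their promoters.

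E2F-type letters, taken as TTTCGCGC, TTTGGCGC, TTTCCCGC or TTTGCCGC on either strand, were searched in RefSeq windows of 250 bases before to 50 bases after each gene start (GRCh38.p14). These letters may overlap each other on the 2 strands. Windows were held for 40 of the 44 genes, and 23 of them (57.5%) had a match, in 24 of 51 windows (47.1%), against 1164 of all 35116 windows (3.31%). The list has long been known for E2F sites, so this describes the genes and is no finding about these cells. The stretches below show 30 bases around a match, 5′ to 3′ on the gene's strand, with the E2F-type letters in capitals. The first 7 belong to genes that fell between D3 and untreated D11 spheroids. They come from several roles, with MCM2, MCM3 and MCM6 all from the helicase. DTL and POLA1 follow because they carry such letters and did not pass the test in that comparison, although both fell once mitochondrially encoded genes were removed.
MCM2 (chr3:127598402-127598431, plus strand, 3 bases after the start): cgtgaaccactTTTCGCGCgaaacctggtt
MCM3 (chr6:52284728-52284757, minus strand, 4 bases before the start): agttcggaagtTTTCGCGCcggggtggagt
MCM6 (chr2:135876515-135876544, minus strand, 90 bases before the start): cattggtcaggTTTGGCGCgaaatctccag
CDC6 (chr17:40287875-40287904, plus strand, 8 bases after the start): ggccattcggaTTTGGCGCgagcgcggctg
E2F1 (chr20:33686387-33686416, minus strand, 20 bases before the start): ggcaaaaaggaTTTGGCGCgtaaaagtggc
PCNA (chr20:5126663-5126692, minus strand, 59 bases before the start): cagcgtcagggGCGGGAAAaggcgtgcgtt
TYMS (chr18:657603-657632, plus strand, 39 bases before the start): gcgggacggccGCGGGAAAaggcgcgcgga
DTL (chr1:212035729-212035758, plus strand, 8 bases before the start): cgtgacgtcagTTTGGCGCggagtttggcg
POLA1 (chrX:24693770-24693799, plus strand, 137 bases before the start): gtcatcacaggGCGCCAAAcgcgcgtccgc
A match is a description of the letters, not a shown binding site. In the same windows, CCAAT was found for 24 of the 40 genes (60.0%), in 58.8% of their windows against 34.6% of all windows. TTTGAA, the core of the CHR element, was found for 1 gene (2.5%), in 1.96% of the genes' windows against 15.2% of all windows.

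Levels are in TPM, a length-scaled share of each library's transcripts, deposited with 1 decimal, and read depth per library is not given in the sources used here. GINS3 stayed between 0.2 and 1.9 TPM and missed the filter of at least 1 TPM in at least 6 libraries, so 43 of the 44 genes were tested among 12221. Genes near 0 TPM at D11, such as MCM10, passed on their monolayer and D3 libraries, so the counts describe the 43 genes tested. Keratinocyte genes were abundant, with KRT5 at 12360 TPM or more in every library, and EPCAM was below 1 TPM throughout. Of 8 genes each, 6 fibroblast and 6 columnar-epithelium markers were below 1 TPM in every library, as were PTPRC, CD3E, PECAM1, VWF and CDH5. The 8 fibroblast markers summed to 1327 to 1835 TPM in monolayer and 124.2 to 212.0 TPM in D3 libraries, and at D11 to 632.7 to 1272 TPM with IL-13 and 754.4 to 1142 TPM without. The immune and endothelial markers summed to 195.5 to 284.6 TPM in monolayer and 221.5 to 267.1 TPM in D3 libraries, and at D11 to 435.3 to 559.3 TPM with IL-13 and 521.6 to 587.4 TPM without. The columnar markers summed to 284.1 to 534.0 TPM in monolayer and 64.1 to 123.3 TPM in D3 libraries, and at D11 to 52.8 to 86.7 TPM with IL-13 and 58.6 to 108.4 TPM without. The part of these marker lists in the results was not tested. Mitochondrially encoded genes took on average 47.6% of the TPM in monolayers and 47.8% in D3 libraries. At D11 they took 21.0% in IL-13-treated and 21.9% in untreated libraries. D3 libraries 2, 7 and 8 stood apart, with SPRR1A, a differentiation gene, at 190.7 to 234.2 TPM. It stood at 3931 to 4769 TPM in D3 libraries 1, 3, 4, 5 and 6, and at 559.8 TPM in library 9. This split crossed the batch labels, since library 7 is labelled batch 2 and library 4 batch 1. The 6 IL-13 columns could be matched to their group but not to single samples, of which 5 are labelled batch 1 and 1 batch 2.

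The 44 genes together were lowest in D11 spheroids and differed most between the 2 batches of monolayer cells. Their TPM summed to 361.5 to 381.8 in batch 2 monolayers and to 1346 to 1501 in batch 1 monolayers. D3 spheroids held 378.2 to 763.7 TPM, with the 3 highest sums in libraries 2, 7 and 8. At D11, the sums in the 6 IL-13-treated libraries were 172.6, 263.0, 270.0, 270.6, 250.3 and 282.4 TPM, against 134.6 to 185.6 TPM in untreated spheroids. Every D11 library lay below each D3 and monolayer library. Of the IL-13 libraries, 5 lay above every untreated library and library 1 lay among them. At 172.6 TPM, library 1 lay above the untreated libraries of batch 2 (134.6 to 153.8 TPM). It lay below those of batch 1 (173.3 to 185.6 TPM), and its own batch is not known.

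**Figure D1:**
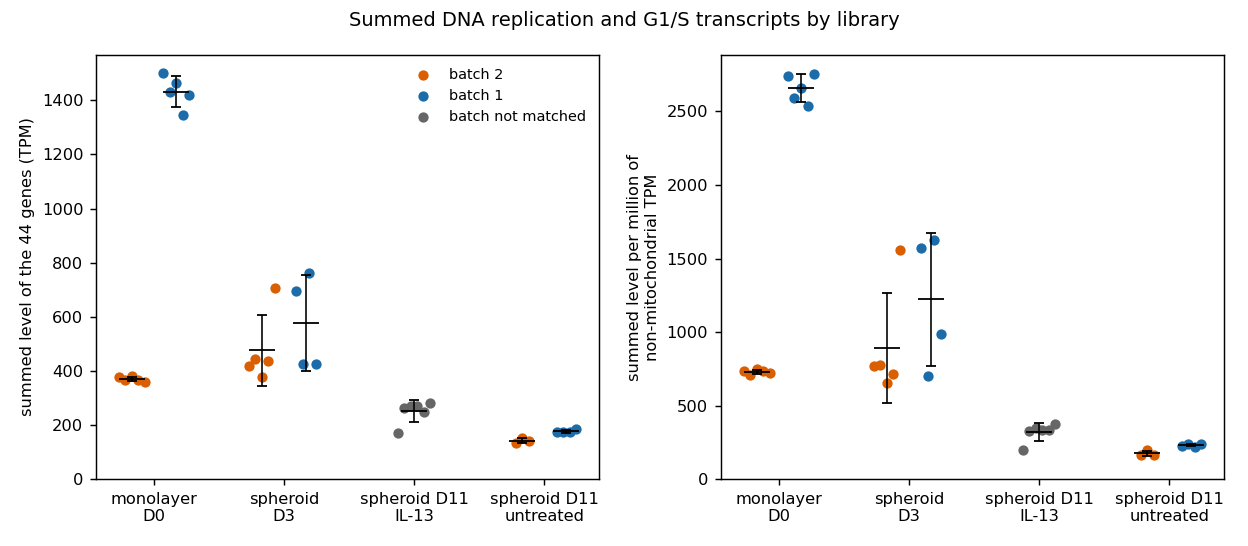
Summed expression of the 44 replication and G1/S genes in each library, in TPM (left) and with mitochondrially encoded genes removed and the rest rescaled (right), by group and batch, with mean and SD bars. Untreated D11 libraries lie between 134.6 and 185.6 TPM, and batch 2 monolayers lie far below batch 1 monolayers.

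The fall from D3 to D11 in untreated spheroids reached nearly every role in the list. Of 43 genes tested, 38 fell and none rose (limma on log2(TPM + 1) with batch as a covariate, adjusted p below 0.05), while among all genes tested 35.8% fell and 33.6% rose. The median change of the 43 was -1.38 on the log2 scale, against -0.02 for all genes. That fit held 1 batch term for all groups, although the batch difference in monolayers differed from that at D3 for all 43 genes. The term enters the changes and SEs given by role below. Fitted on D3 and untreated D11 libraries alone, 39 genes fell and 2 rose, beside 37.4% and 34.2% of all genes. The median was then -1.295 for the 43 and -2.16 for the helicase, against -2.24 for the helicase over all 32 libraries. In 36 of the 43, every untreated D11 library lay below every D3 library, which held for 19.0% of all genes. In bulk RNA, a smaller share of cycling cells and less of these mRNAs per cell cannot be told apart. The fold changes are on the log2(TPM + 1) scale and understate the change of genes near 0 TPM.

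**Figure D2:**
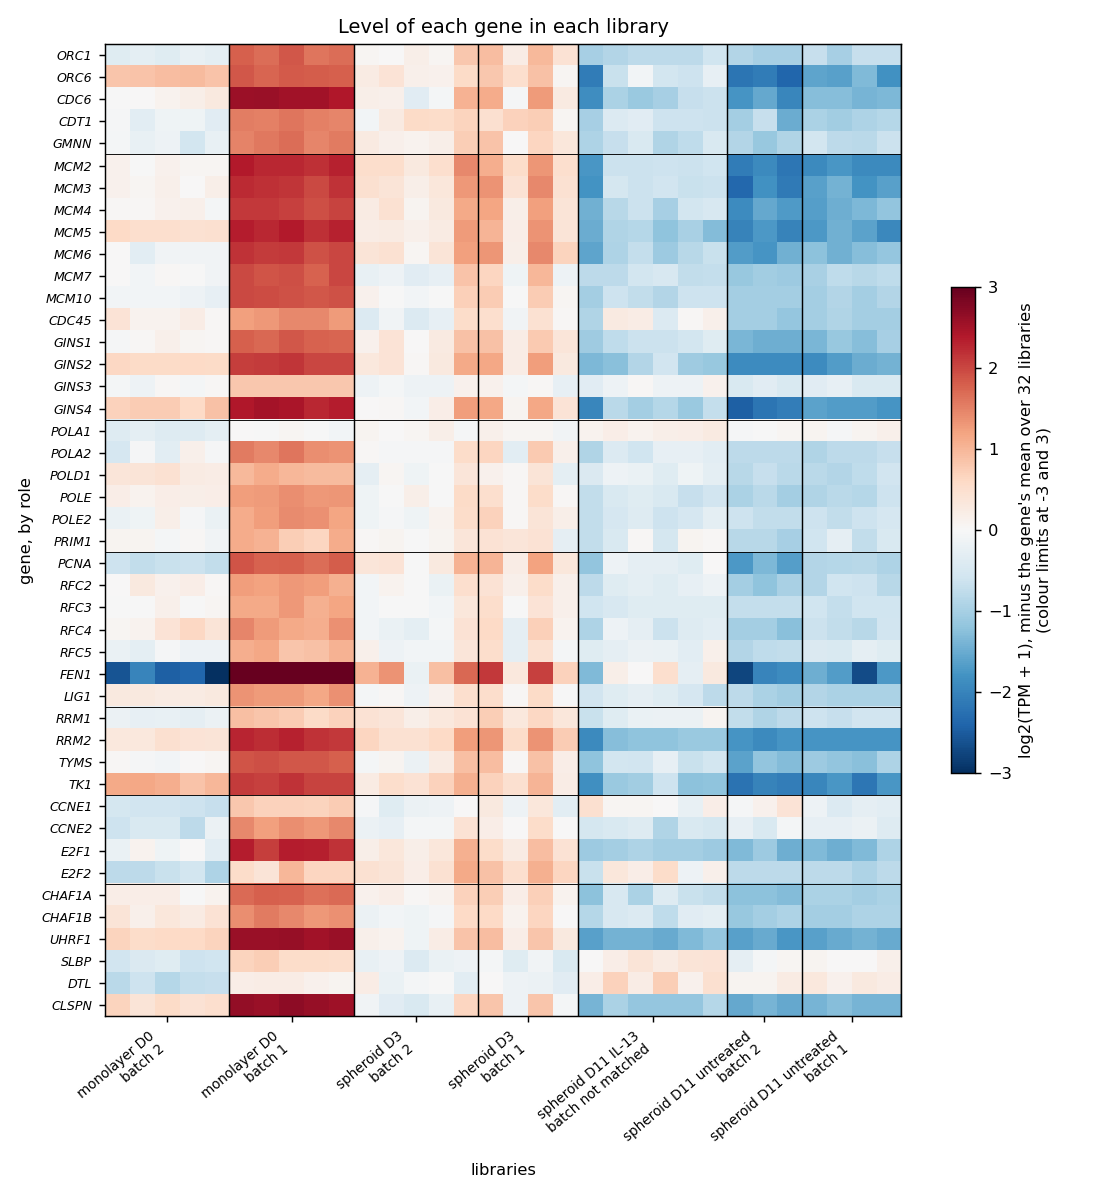
Level of each of the 44 genes in each of the 32 libraries, as log2(TPM + 1) minus the gene's mean over all libraries, with genes ordered by role. The D11 columns are low for most rows and the batch 1 monolayer columns are high, while POLA1, DTL, SLBP and CCNE1 show no such drop at D11.

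All 11 tested genes of the helicase fell, with a median change of -2.24. MCM2, a subunit of the ring, had 1.0 TPM in the lowest, 1.4 TPM in the median and 1.7 TPM in the highest of 7 untreated D11 libraries, against 10.1, 12.1 and 23.4 TPM in 9 D3 libraries. The highest D11 library was thus several times below the lowest D3 library. MCM2 fell by 2.83 ± 0.27 on the log2 scale (SE, adjusted p = 1.3e-10). MCM3 fell by 2.66 ± 0.25, MCM5 by 2.46 ± 0.22, MCM4 by 2.24 ± 0.24 and MCM6 by 2.24 ± 0.25. MCM7 changed least of the ring and fell by 1.20 ± 0.23 (adjusted p = 3.4e-05). Its lowest, median and highest values were 23.8, 26.9 and 31.4 TPM in untreated D11 spheroids and 42.3, 48.3 and 109.2 TPM in D3 spheroids. MCM10, which helps activate the helicase, was listed at 0 TPM in 5 of 7 untreated D11 libraries and at 0.1 TPM in the other 2, against 0.9 to 2.4 TPM at D3. CDC45 stood at 0.0 to 0.2 TPM in untreated D11 libraries and at 0.7 to 2.3 TPM at D3. GINS4 stood at 0.0 to 0.8 TPM and at 4.1 to 12.0 TPM in the same groups, and GINS2 fell by 2.40 ± 0.19.

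The subunits of the MCM2-7 ring, which is assembled with 1 copy of each, thus changed their proportions in mRNA. MCM7 made up 42.1% ± 1.28 of the summed MCM2-7 TPM in monolayer libraries (SD, n = 10), 36.9% ± 1.66 at D3 (n = 9) and 62.4% ± 2.09 in untreated D11 libraries (n = 7). The MCM2 share was 7.80% ± 0.86 in monolayer libraries, 8.84% ± 0.63 at D3 and 3.01% ± 0.31 in untreated D11 libraries. No untreated D11 library overlapped a D3 or monolayer library in either share. Both shares are ratios of length-scaled levels, and MCM7 overlaps exons of AP4M1 and MCM2 those of TPRA1 on the opposite strand. Whether counting used strand is not given in the sources used here, so part of either level may belong to the neighbour.

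**Figure D3:**
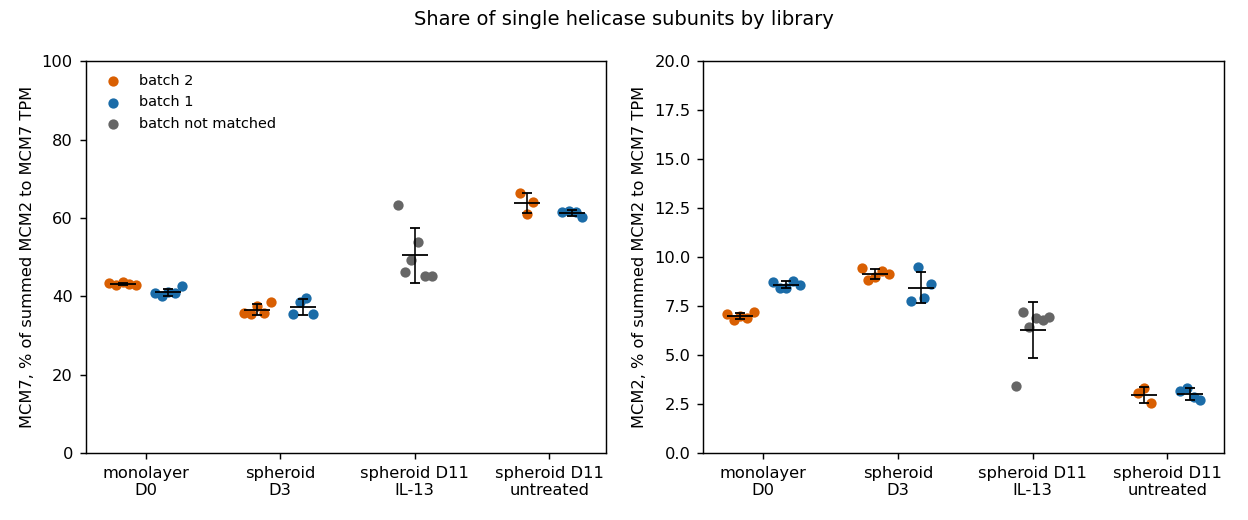
Share of MCM7 (left) and MCM2 (right) in the summed TPM of MCM2 to MCM7, in percent, for each library by group, with mean and SD bars per batch. Untreated D11 libraries hold 60.3% to 66.3% MCM7, and IL-13 library 1 lies among them at 63.2%, above the 45.1% to 53.9% of the other IL-13 libraries.

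All 5 licensing genes fell. ORC6, the smallest subunit of the origin recognition complex, had 0.5, 1.2 and 2.1 TPM in the lowest, median and highest untreated D11 library, against 7.1, 9.3 and 13.2 TPM at D3. It fell by 2.36 ± 0.18 (adjusted p = 1.4e-12), with no overlap between the groups. CDC6, the loader of the ring, fell by 2.06 ± 0.28, with 0.5 to 1.4 TPM in untreated D11 spheroids and 3.6 to 13.1 TPM in D3 spheroids. CDT1, its partner in loading, stood at 10.0 to 18.0 TPM and at 28.0 to 50.6 TPM in these groups and fell by 1.53 ± 0.21. Geminin fell by 1.28 ± 0.21 and ORC1 by 1.38 ± 0.22.

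Among polymerases and primase, 5 of 6 genes fell and POLA1 did not pass the test. POLA1, the catalytic subunit of the primase-coupled polymerase alpha, had 3.3, 3.6 and 3.9 TPM in the lowest, median and highest untreated D11 library and 3.1, 3.6 and 4.0 TPM at D3, a log2 change of -0.03 ± 0.06 (adjusted p = 0.68). Its accessory subunit POLA2 fell by 1.08 ± 0.21, with 0.2 to 0.4 TPM in untreated D11 spheroids and 0.8 to 2.9 TPM in D3 spheroids. POLE, the leading-strand polymerase, fell by 1.11 ± 0.14 and POLD1, the lagging-strand polymerase, by 0.83 ± 0.11.

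The 7 genes of the clamp, loader and lagging strand all fell. PCNA had 11.5, 20.8 and 22.3 TPM in the lowest, median and highest untreated D11 library, against 40.2, 52.5 and 94.5 TPM at D3. It fell by 1.88 ± 0.27 (adjusted p = 4.3e-07) and was second to MCM7 in median TPM among the 44 genes at D11. FEN1, the flap endonuclease that trims Okazaki fragments, fell by 3.46 ± 0.70 (adjusted p = 6.6e-05), with 0.7 to 3.2 TPM in untreated D11 spheroids and 9.0 to 49.2 TPM in D3 spheroids. Fitted in each batch alone, it fell by 3.18. FEN1 (chr11:61792637-61797244, plus strand, hg38 coordinates of GENCODE 29) shares exonic bases with FADS2 on the same strand and TMEM258 on the other, so its values are uncertain. LIG1, the ligase that seals the fragments, fell by 1.17 ± 0.14. The clamp-loader genes fell by between 1.13 ± 0.13 for RFC2 and 0.72 ± 0.14 for RFC5.

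All 4 genes of nucleotide supply fell. RRM2, the cell-cycle-regulated subunit of ribonucleotide reductase, had 0.1 to 0.2 TPM in untreated D11 libraries against 4.7 to 9.5 TPM at D3 and fell by 2.73 ± 0.22 (adjusted p = 3.5e-12). The partner subunit RRM1 fell by 1.17 ± 0.12, with 7.2 to 9.3 TPM in untreated D11 spheroids and 16.3 to 24.3 TPM in D3 spheroids. TK1, thymidine kinase, had 3.2, 3.8 and 4.8 TPM in the lowest, median and highest untreated D11 library, against 21.5, 27.1 and 39.4 TPM at D3, and fell by 2.64 ± 0.16 (adjusted p = 9.4e-15). TYMS, thymidylate synthase, fell by 1.67 ± 0.23.

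The G1/S regulators were split. E2F1 fell by 1.86 ± 0.28, with 1.0 to 1.9 TPM in untreated D11 spheroids and 5.2 to 10.5 TPM in D3 spheroids, and E2F2 stood at 0.0 to 0.1 TPM at D11 and at 1.2 to 3.2 TPM at D3. The cyclins that activate CDK2 did not pass the test in the fit over all 32 libraries. CCNE1 had 1.9, 2.5 and 4.1 TPM in the lowest, median and highest untreated D11 library and 2.0, 2.5 and 3.9 TPM at D3 (log2 change -0.09 ± 0.19, adjusted p = 0.69). CCNE2 changed by -0.43 ± 0.22 (adjusted p = 0.086). Its mean at D11 was 75.0% of that at D3 in batch 2 and 58.75% in batch 1. Fitted on these 2 groups alone, 3 of the 4 G1/S genes fell (37.4% of all genes). All 4 fell in batch 1 alone (29.8%), while 2 fell and 1 rose in batch 2 alone (41.6% and 27.5%).

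Of the 6 remaining genes, 4 fell. UHRF1, which couples DNA methylation to replication, fell by 2.07 ± 0.22, and CLSPN, the checkpoint adaptor claspin, was at 0.0 to 0.2 TPM in untreated D11 spheroids against 1.1 to 4.2 TPM in D3 spheroids. CHAF1A and CHAF1B, subunits of the histone chaperone CAF-1, fell by 1.51 ± 0.19 and 1.24 ± 0.15. DTL, the adaptor through which PCNA-bound CDT1 is marked for degradation, had 12.3, 13.7 and 14.8 TPM in the lowest, median and highest untreated D11 library and 9.0, 10.4 and 13.8 TPM at D3 (log2 change 0.26 ± 0.13, adjusted p = 0.079). SLBP, which binds replication-dependent histone mRNAs, changed by 0.17 ± 0.14 (adjusted p = 0.28). The mitochondrial share of TPM fell between these groups as well. With mitochondrially encoded genes removed before scaling, all 43 genes fell, beside 65.7% of all genes that fell and 13.6% that rose. DTL then changed by -0.30, SLBP by -0.40 and POLA1 by -0.54.

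The decrease was found in each batch. Within batch 2, 38 of the 43 genes fell and 1 rose, beside 41.6% and 27.5% of all genes. Within batch 1, 40 fell and DTL and SLBP rose, beside 29.8% and 38.1%. Untreated D11 spheroids held a median of 20.0% of the D3 level in batch 2 and 18.7% in batch 1. For 1 gene, CCNE1, the change was more positive in batch 2 than in batch 1 (2.04% of all genes). CCNE1 rose by 0.31 ± 0.10 in batch 2 and fell by 0.33 ± 0.13 in batch 1. Without D3 libraries 4 and 7, which went against their batch labels, 38 genes still fell (34.6% of all genes), and 12 genes had a more positive change in batch 2 (4.8% of all genes).

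In the same comparison, in which 35.8% of all genes fell and 33.6% rose, most tested genes fell in each of 6 further lists, which hold 140 symbols outside the 44. Of other replication machinery, 24 of 30 tested genes fell and 3 rose, led by TOP2A, which relieves DNA supercoils (log2 change -4.04 ± 0.19), and by POLD4, a small subunit of polymerase delta, among those that rose (1.22 ± 0.14). S-phase kinases and G1/S regulators had 21 of 29 that fell and 5 that rose, with CCNA2, the S-phase cyclin, at -3.69 ± 0.19 and the CDK inhibitors CDKN2D and CDKN1A at 2.31 ± 0.15 and 2.20 ± 0.17. Nucleotide supply and salvage had 17 of 22 that fell and 3 that rose, S-phase checkpoint and fork repair 22 of 24 and 2, and replication-coupled chromatin 9 of 12 and 1. All 19 tested mitosis genes fell, with a median of -3.28, and MKI67 stood at 0.6 to 1.4 TPM in untreated D11 spheroids against 48.7 to 118.1 TPM at D3.

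Set against the monolayer, untreated D11 spheroids were lower in 39 of 43 genes and higher in 2, while 63.5% of all genes were lower and 21.0% higher. This comparison and the one with D3 share the D11 libraries. The log2 change was -3.58 ± 0.16 for TK1, -3.26 ± 0.18 for ORC6, -3.21 ± 0.26 for MCM2 and -3.16 ± 0.22 for RRM2. DTL rose by 0.46 ± 0.13 (adjusted p = 0.0019), but changed by -0.07 with mitochondrially encoded genes removed. POLA1 rose by 0.20 ± 0.06 (adjusted p = 0.0013), but fell by 0.26 with those genes removed. The change was more positive in batch 2 than in batch 1 for 41 genes (15.6% of all genes), the exceptions being ORC6 and RFC4. In batch 2, the median gene held 27.75% of its monolayer level at D11, and in batch 1 it held 7.33%.

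The monolayers of the 2 batches stood far apart. All 43 genes were lower in batch 2 than in batch 1 monolayers (35.0% of all genes), and in all 43 the 5 batch 2 libraries lay below the 5 batch 1 libraries (31.7% of all genes). This contrast was added after the values had been seen. The median change was -1.61 on the log2 scale, against -0.03 over all genes, and the median ratio of batch 1 to batch 2 was 3.64. FEN1 ranked 1st from the bottom among 12221 genes, with 0.9, 1.9, 1.1, 1.2 and 0.3 TPM in batch 2 and 145.1, 117.6, 130.8, 115.8 and 123.7 TPM in batch 1. Its neighbour FADS2 stood at 67.2 to 71.8 TPM in batch 2 and at 102.4 to 106.0 TPM in batch 1. PCNA ranked 12th, with 25.9, 23.8, 24.9, 25.5 and 23.7 TPM in batch 2 and 151.8, 139.8, 141.6, 130.6 and 144.4 TPM in batch 1. E2F1 ranked 17th, with 3.8, 4.9, 4.0, 4.5 and 3.4 TPM in batch 2 and 27.3, 22.2, 27.1, 26.8 and 23.8 TPM in batch 1. In each case no batch 2 monolayer came near the lowest batch 1 monolayer. POLA1 differed least, with 2.4 to 2.6 TPM in batch 2 and 3.2 to 3.6 TPM in batch 1. MKI67 was at 118.1 to 136.2 TPM in batch 2 and at 217.9 to 237.3 TPM in batch 1, and CDKN1A, a CDK inhibitor, at 468.7 to 535.9 TPM and 227.2 to 244.0 TPM. Of the mitosis list 18 of 19 tested genes were lower in batch 2, with a median of -0.84. The labels give nothing else on which the batches differ, and the part of culture state or handling in this difference was not tested.

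For D3 spheroids against monolayers, the batches gave different results. In the fit over both batches, 26 of 43 genes fell and POLA1 (0.23 ± 0.05) and E2F2 (0.72 ± 0.18) rose, beside 68.2% of all genes that fell and 12.7% that rose, and the median of the 43 was -0.43 against -0.44 for all genes. The members' share that fell was thus not above the background. With median-of-ratios scaling, which moved the median of all genes to -0.03, 6 genes fell and 5 rose, beside 35.6% and 31.5% of all genes. The batch interaction was positive for all 43 genes (25.2% of all genes), with a median of 1.39 against 0.05. Without D3 libraries 4 and 7, 26 genes fell and 2 rose (67.7% and 12.5% of all genes) and the interaction was positive for 42 (29.7%).

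Within batch 1, 41 of the 43 genes fell and none rose, beside 68.0% and 11.1% of all genes, with a median of -1.15 against -0.46. In 40 of them every D3 library of batch 1 lay below every batch 1 monolayer (59.2% of all genes). MCM2 had 18.4, 12.2, 21.8 and 11.8 TPM in batch 1 D3 spheroids against 46.1, 42.5, 42.7, 40.4 and 44.2 TPM in batch 1 monolayers, a fall by 1.42 ± 0.14 (adjusted p = 1.1e-06). CLSPN fell by 2.24 ± 0.18, FEN1 by 2.17 ± 0.35 and UHRF1 by 2.03 ± 0.13. POLA1 and E2F2 did not pass the test, at 0.04 ± 0.06 and 0.13 ± 0.12.

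Within batch 2, 18 of the 43 genes rose and 6 fell, whereas 15.6% of all genes rose and 63.4% fell. The median of the 43 was 0.20, against -0.40 for all genes. In 13 genes every D3 library of batch 2 lay above every batch 2 monolayer (10.7% of all genes), and in 1, ORC6, every D3 library lay below (54.5% of all genes). MCM2 had 12.1, 12.0, 10.1, 11.8 and 23.4 TPM in batch 2 D3 spheroids against 8.9, 8.0, 8.9, 8.5 and 8.5 TPM in batch 2 monolayers, a rise of 0.58 ± 0.17 (adjusted p = 0.0057). PCNA had 52.5, 53.6, 40.2, 49.8 and 83.9 TPM in batch 2 D3 spheroids against 23.7 to 25.9 TPM in batch 2 monolayers and rose by 1.10 ± 0.15. FEN1 rose by 3.48 ± 0.32, RRM1 by 0.57 ± 0.06 and DTL by 0.67 ± 0.09, and E2F2 had 1.2 to 3.2 TPM in batch 2 D3 spheroids against 0.0 to 0.3 TPM in batch 2 monolayers. The 6 genes that fell were CLSPN, ORC6, TK1, UHRF1, RFC4 and POLD1, by between 0.61 ± 0.16 and 0.33 ± 0.10. MKI67 fell in both batches, by 1.06 ± 0.17 in batch 2 and 1.42 ± 0.20 in batch 1. At D3 the batches as labelled overlapped for MCM2, at 10.1 to 23.4 TPM in batch 2 and 11.8 to 21.8 TPM in batch 1. Part of that overlap came from libraries 7 and 4, which went against their labels. Without them MCM2 had 12.1, 12.0, 10.1 and 11.8 TPM in batch 2 and 18.4, 21.8 and 11.8 TPM in batch 1. The summed TPM of the 44 genes was then 418.8, 444.6, 378.2 and 436.7 in batch 2 and 696.7, 763.7 and 424.5 in batch 1, so batch 1 library 9 alone lay within the batch 2 range.

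**Figure D4:**
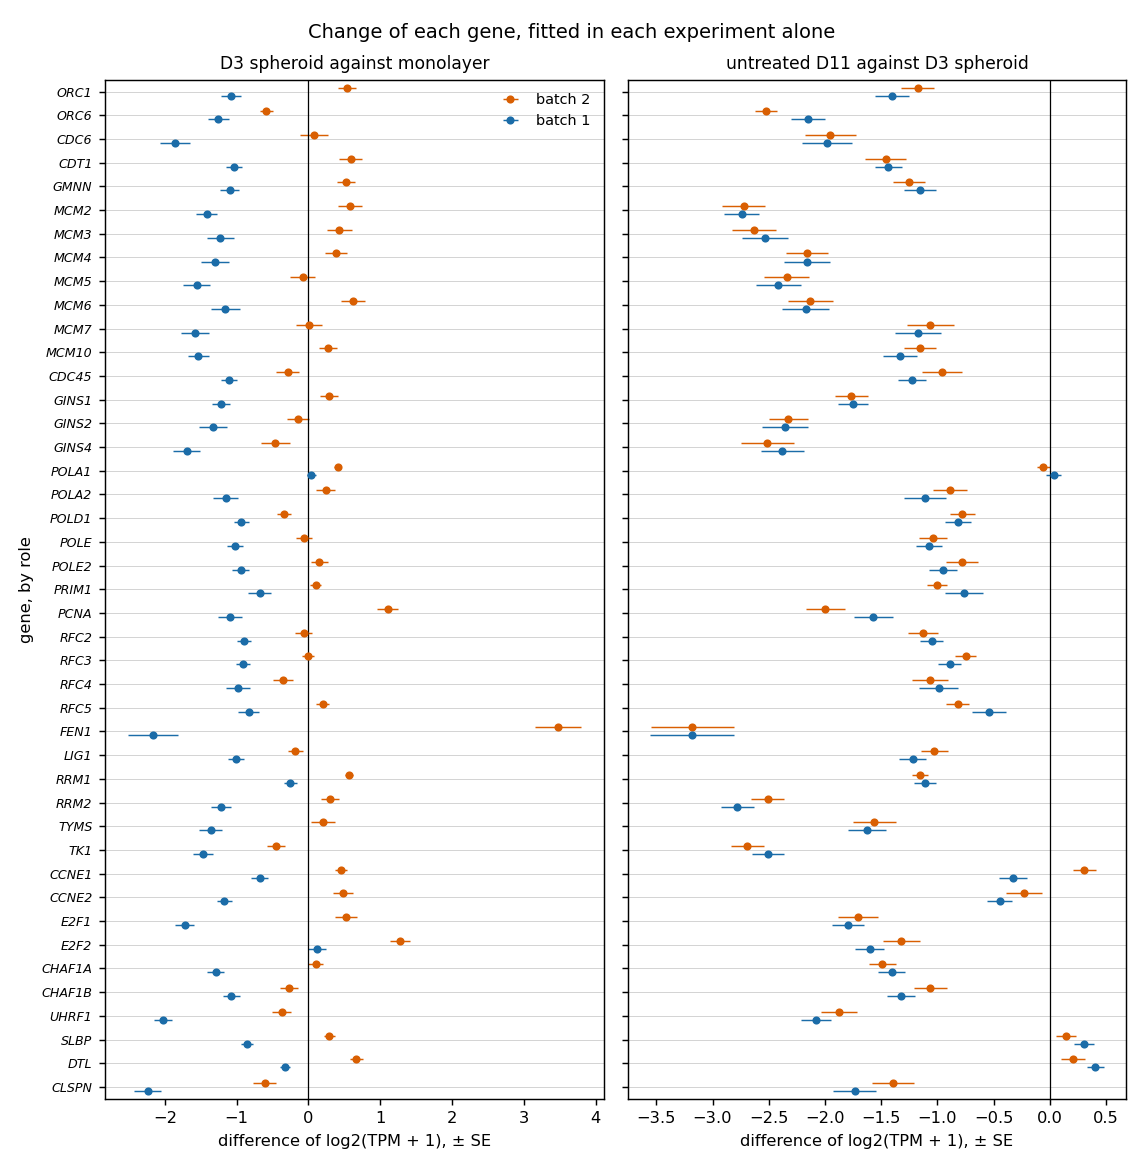
Log2 change of each gene within batch 2 and within batch 1, with SE bars, for D3 spheroids against monolayers (left) and untreated D11 against D3 spheroids (right). On the left the batches separate, with 18 genes that rose in batch 2 and 41 that fell in batch 1. On the right they coincide for most genes.

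IL-13 from D3 to D11 was followed by higher levels of some of these genes than in untreated D11 spheroids. In the fit over all 32 libraries, 10 of the 43 genes rose and none fell, beside 39.2% and 8.49% of all genes. The share that rose was thus below the background in that fit. The median change was 0.27, against 0.19 for all genes. That fit held 1 batch term for all groups, although the batch difference in monolayers differed from that at D3 for all 43 genes. The IL-13 and untreated groups hold unlike batch shares, so this term enters their contrast. The result depended on the libraries and the batch term in the fit. When only the IL-13 and untreated D11 libraries were fitted, 28 genes rose and 1, CCNE2, fell, beside 30.1% and 9.03% of all genes. Without a batch term in that fit, 35 rose and 1 fell, beside 37.9% and 9.15%. Against the 4 untreated libraries of batch 1 alone, 17 rose (17.8% of all genes). With median-of-ratios scaling, ORC6, CDC45, E2F2, TK1 and MCM2 rose and CCNE2 fell, beside 20.1% and 19.7% of all genes.

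The library values show a 5-to-1 split within the treated group. The labels also give 5 batch 1 samples and 1 batch 2 sample for this group. Whether library 1 is the batch 2 sample is not known, so batch and an uneven response to IL-13 cannot be told apart. For 27 of the 43 genes at least 5 of the 6 IL-13 libraries lay above every untreated library (33.7% of all genes), and for 5 genes, GINS2, POLD1, FEN1, E2F2 and CHAF1B, all 6 did (9.66%). MCM2 had 1.7, 4.8, 4.8, 4.9, 4.8 and 5.0 TPM in the IL-13 libraries, against 1.4, 1.7, 1.4, 1.1, 1.4, 1.4 and 1.0 TPM in the untreated D11 libraries. IL-13 library 1 equalled the highest untreated library and the other 5 lay above it. MCM2 rose by 0.89 ± 0.30 (adjusted p = 0.017). IL-13 library 1 also had SPRR1A at 26849.5 TPM, within the 19768 to 28092 TPM of the untreated libraries, while the other 5 had 12033 to 17111 TPM. By batch, the untreated libraries had 27283 to 28092 TPM in batch 2 and 19768 to 26026 TPM in batch 1. Without it, 13 of the 43 genes rose (50.2% of all genes). Without untreated library 1, 3 or 5, or IL-13 library 3, 4 or 5, 6 rose, beside 33.6% to 39.6% of all genes. Across all single libraries left out, the calls lost were those of MCM3, GINS4, RFC2 and RRM1.

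By role, the licensing gene ORC6 rose most of those that passed the test, by 0.98 ± 0.20 (adjusted p = 0.00027). It had 0.8, 3.9, 6.3, 4.3, 4.0 and 5.5 TPM in the IL-13 libraries and 1.6, 1.5, 2.1, 0.7, 1.2, 0.8 and 0.5 TPM in the untreated ones. Of the helicase, MCM2, MCM3, CDC45 and GINS4 rose. CDC45 had 0.2, 1.7, 1.6, 0.7, 1.3 and 1.5 TPM in the IL-13 libraries against 0.0 to 0.2 TPM in untreated D11 spheroids, so 5 of the 6 were separated from them. Of the nucleotide genes, TK1 rose by 0.69 ± 0.18 (adjusted p = 0.003), with 4.4, 7.9, 8.4, 11.5, 7.3 and 7.4 TPM against 3.2 to 4.8 TPM, and RRM1 rose by 0.32 ± 0.13 (adjusted p = 0.046). POLD1 (0.43 ± 0.12) and RFC2 (0.35 ± 0.14) were the only polymerase and clamp-loader genes that rose in the fit over all 32 libraries. E2F2, an activator of S-phase genes, rose by 0.72 ± 0.22 (adjusted p = 0.0084), with 0.2, 1.4, 1.2, 1.8, 0.7 and 1.1 TPM in the IL-13 libraries and 0.0 to 0.1 TPM in the untreated ones.

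Other genes did not pass the test in the fit over all 32 libraries. FEN1 had 3.6, 12.0, 10.6, 15.2, 8.6 and 13.1 TPM in the IL-13 libraries and 0.7 to 3.2 TPM in untreated D11 spheroids, with no overlap, but its change of 1.26 ± 0.78 did not pass (adjusted p = 0.19). In the fit of the D11 groups alone FEN1 rose by 1.83 ± 0.31 (adjusted p = 0.00064). PCNA changed by 0.48 ± 0.30 (adjusted p = 0.20), with 17.3, 36.3, 33.0, 33.1, 31.0 and 40.8 TPM against 11.5 to 22.3 TPM. MCM7 changed by 0.02 ± 0.26, with 30.8 to 38.3 TPM in the IL-13 libraries and 23.8 to 31.4 TPM in the untreated ones. E2F1 changed by -0.01 ± 0.31, with 1.6 to 1.9 TPM and 1.0 to 1.9 TPM in these groups. CCNE2 changed by -0.49 ± 0.25 (adjusted p = 0.10), with 0.4 to 1.0 TPM in the IL-13 libraries and 0.9 to 1.5 TPM in the untreated ones. Of the genes that rose, MCM2 at 5.0 TPM or less still lay under the 10.1 TPM of the lowest D3 library, and TK1 at 11.5 TPM or less under 21.5 TPM. MCM3, ORC6, GINS4 and RRM1 also stayed below every D3 library, while CDC45, E2F2, POLD1 and RFC2 overlapped their D3 range in TPM. Mitochondrially encoded genes took on average 47.8% of the TPM at D3 and 21.0% with IL-13, which lowers the TPM of other genes more at D3. Whether these genes still overlap with mitochondrially encoded genes removed was not tested. POLD1 had 4.2 to 5.4 TPM in IL-13 spheroids and 4.7 to 8.1 TPM at D3, and RFC2 had 2.5 to 4.4 TPM and 4.3 to 7.8 TPM.

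**Figure D5:**
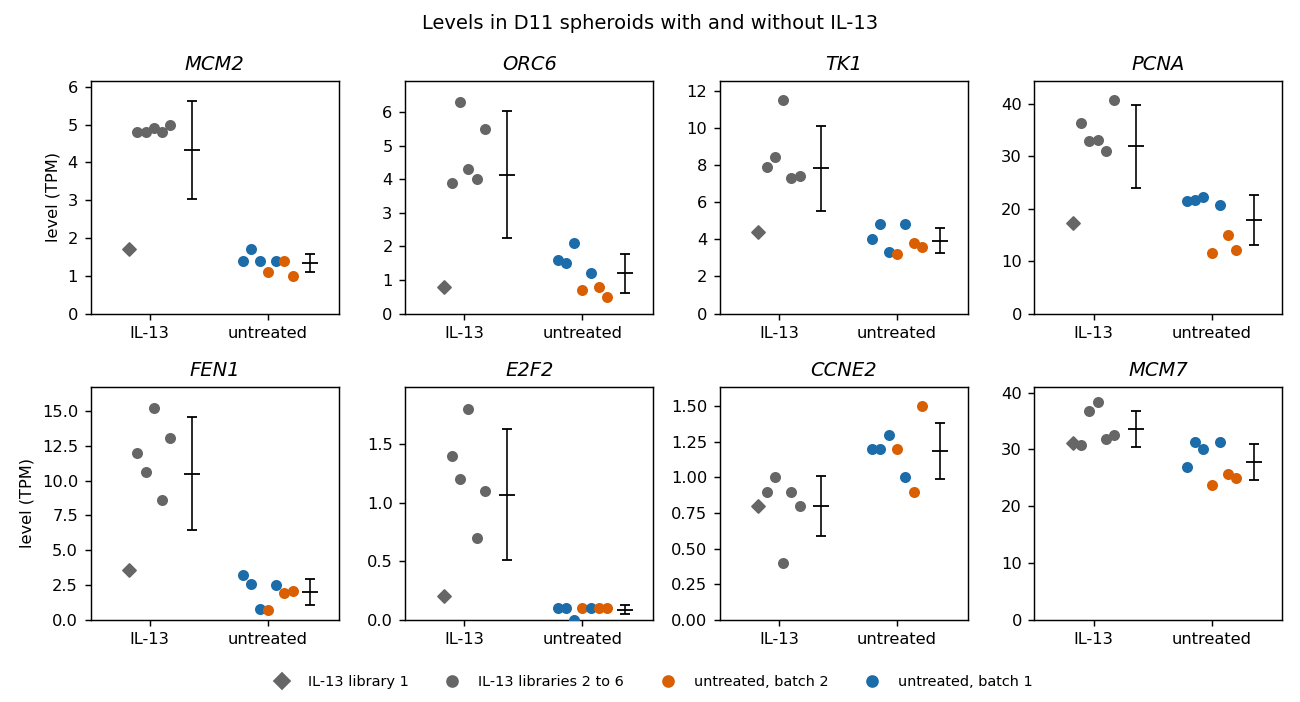
TPM of 8 genes in each IL-13-treated and untreated D11 library, with mean and SD bars. IL-13 library 1 is drawn as a diamond. For MCM2, ORC6 and TK1 the diamond lies within the untreated range while the other 5 libraries lie above it. For MCM7, 4 IL-13 libraries lie above the untreated range.

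The shares within the MCM2-7 ring followed the same split. MCM7 made up 63.2% of the summed TPM in IL-13 library 1 and 45.1% to 53.9% in the other 5, against 60.3% to 66.3% in untreated D11 spheroids. MCM2 made up 3.46% in library 1 and 6.44% to 7.22% in the others, against 2.56% to 3.34% in untreated spheroids. Among the further lists, read against the 39.2% of all genes that rose and the 8.49% that fell, nucleotide supply and salvage had 17 of 22 genes that rose and none that fell, mitosis 10 of 19 and none, and S-phase kinases and G1/S regulators 11 of 29 and 2. Other machinery had 9 of 30 that rose and 1 that fell, checkpoint and fork repair 6 of 24 and 1, and replication-coupled chromatin 4 of 12 and none. The shares that rose in kinases and regulators, other machinery, checkpoint and repair, and chromatin were thus below that of all genes in this fit. This did not hold when only the IL-13 and untreated D11 libraries were fitted, where 30.1% of all genes rose. In that fit 11 of 29, 11 of 30, 9 of 24 and 4 of 12 genes of these lists rose, each a share above that of all genes. In the fit over all 32 libraries CCND1, the G1 cyclin D1, rose by 0.73 ± 0.14, CCNA2 by 0.61 ± 0.21 and MKI67 by 0.89 ± 0.22. MKI67 stood at 0.8 TPM in library 1 and 3.3 to 5.0 TPM in the others, against 0.6 to 1.4 TPM in untreated spheroids. The CDK inhibitor CDKN1A changed by 0.28 ± 0.19 (adjusted p = 0.23).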

How the data were processed

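Bulk RNA-seq of total RNA was measured in 32 libraries. The deposited table gives TPM per gene, as the authors made it. The genome build is hg38, per the submitters' processing notes. Of aligner, counter and strand handling, the sources used here give none. Columns summed to about 1000000 TPM and were rounded to 1 decimal, so depth is unknown and no count model, interval or floor was used. Of the columns, 26 matched 1 sample and 6 IL-13 columns matched the group only.

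Genes with at least 1 TPM in at least 6 libraries were kept (12221 of 19345), mitochondrially encoded genes included. limma 3.58.1 (R 4.3.3) was fitted to log2(TPM + 1) of all 32 libraries with group and batch as terms and a trended prior. The IL-13 libraries, of which 1 in 6 is batch 2, each carried that share as their batch value. P-values are two-sided and Benjamini-Hochberg adjusted over all genes, with a threshold of 0.05. Batch interactions and the monolayer batch contrast came from a fit with 1 mean per group and batch, without the IL-13 libraries. The code was tested on simulated data. Tables and figures used Python 3.11.15, pandas 2.3.3, numpy 2.4.6 and matplotlib 3.10.9, and coordinates of genes came from GENCODE 29.

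The 44 genes, the 6 further lists and the marker lists were chosen with earlier results of these data known. By rule, 22 genes could be named in every comparison whatever their result, with the 3 largest rises and falls, the extremes of each role, the 2 largest rises and falls of each further list, and MKI67 and KRT5. Changes of other members, and FADS2, TMEM258, SPRR1A and CDKN1A outside D11 against D3, were chosen for the text after their values were seen. Some same-numbered libraries carry different batch labels, such as monolayer 1 (batch 1) and D3 library 1 (batch 2). The numbers were not taken as pairs. Deviations of same-numbered libraries from their group means were compared without taking out batch, so that check cannot decide whether they are pairs. Alternatives in scaling, pseudocount, filter, model and libraries are given in the closing section. Exons of 14 of the 44 genes overlap another protein-coding gene, 6 of them on the same strand, and 6 genes have pseudogenes of their own name.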

Additional observations from a re-analysis of the deposited data

Results flagged for a closer look

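In 6 of 92 groups checked, the highest or lowest library stood apart from the others by Dixon's criterion, and chance gives about 1 in 20. In the IL-13 group, library 1 was lowest for MCM2 (1.7 TPM), RRM2 (0.1 TPM) and the summed TPM of the 44 genes (172.6). Library 4 was lowest for CCNE2 (0.4 TPM) and library 3 highest for E2F1 (1.9 TPM). Untreated D11 library 6 was lowest for RRM2 (0.1 TPM), a step of 1 in the last decimal that the table keeps.

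The change between D3 spheroids and monolayers differed between the batches, by the test of the difference itself, for 43 genes. Batch 2 minus batch 1 of the log2 change was 5.65 for FEN1, 2.25 for E2F1 and 2.20 for PCNA at the upper end, and 0.37 for POLA1, 0.60 for POLD1 and 0.62 for RFC4 at the lower end. Between untreated D11 spheroids and monolayers it differed for 41 genes, with 5.65 for FEN1, 2.34 for E2F1 and 2.01 for MCM2, and with 0.28 for POLA1, 0.54 for PRIM1 and 0.63 for POLD1. Between untreated D11 and D3 spheroids it differed for 1 gene, CCNE1 (0.63). Both comparisons with the monolayer share the monolayer libraries. FEN1 shares exonic bases with FADS2 and TMEM258, and the part of that overlap in its values was not tested.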

How the results depend on the processing

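The fall of 38 genes between untreated D11 and D3 spheroids, and of 39 between untreated D11 spheroids and monolayers, stayed within 1.5 times under each alternative run, while the counts for D3 spheroids against monolayers and for IL-13 moved. Where a value moved, the cause was not tested. Counts in this section without a share of all genes beside them show only how the setting moved them. They are not read as results about these genes. A pseudocount of 0.1 gave 18 genes higher with IL-13 (39.8% of all genes) and 3 batch interactions between D11 and D3, and one of 5 gave 4 higher (37.8%) and CDC6 at -0.0436. A filter of 5 TPM, which tests fewer genes, gave 0 genes higher in D3 and 1 in D11 spheroids against monolayers, and 0 interactions between D11 and D3 and 27 between D11 and monolayers. Median-of-ratios scaling gave 6 genes lower (35.6% of all genes) and 5 higher (31.5%) in D3 spheroids against monolayers (MCM2 0.10). With IL-13 it gave 1 lower (19.7%) and 5 higher (20.1%, KRT5 -0.16). CCNE1 was then at 0.20 and SLBP at 0.42 for D11 against monolayers. Quantile normalization gave 5 lower and 4 higher (MCM2 0.11), 1 lower (20.8% of all genes) and 4 higher (18.7%) with IL-13 (CDC6 -0.034), POLA1 at 0.0249 for D11 against D3, and CCNE1 at 0.28 and SLBP at 0.35 for D11 against monolayers. With mitochondrially encoded genes removed, DTL (-0.30) and SLBP (-0.40) turned for D11 against D3. No gene (0) was then higher at D11 than in monolayers, beside 12.1% of all genes (POLA1 -0.26, DTL -0.075). Library weights gave 17 lower and 6 higher in D3 spheroids against monolayers (MCM2 0.027), 1 higher at D11 than in monolayers, 33 higher with IL-13 (48.8% of all genes, GMNN 0.18), and DTL at -0.26 and SLBP at -0.44 for D11 against D3.

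Without a batch term PCNA changed by -0.00874 for D3 against monolayers and GMNN by 0.12 with IL-13. Fitting only the groups compared gave 2 genes higher at D11 than at D3 (34.2% of all genes). With IL-13 it gave 1 lower (9.03%) and 28 higher (30.1%, GMNN 0.044). Batch 1 alone gave 41 lower (68.0% of all genes) and 0 higher (11.1%) in D3 spheroids against monolayers (PCNA -1.09, FEN1 -2.17). At D11 it gave 2 higher than at D3 (38.1%, POLA1 0.033) and 0 higher than in monolayers (24.1%). Batch 2 alone gave 6 lower (63.4% of all genes) and 18 higher (15.6%) in D3 spheroids against monolayers (MCM2 0.58, E2F1 0.53). At D11 it gave 1 higher than at D3 (27.5%, CCNE1 0.31) and 4 higher than in monolayers (18.2%). Against monolayers FEN1 was at 0.30, CCNE1 at 0.76, CCNE2 at 0.25 and SLBP at 0.44. Alternatives chosen after seeing the data gave 17 genes higher with IL-13 against batch 1 untreated libraries, 35 higher (37.9% of all genes) and 1 lower (9.15%) from the D11 libraries with no batch term (GMNN 0.12), and, from means per group and batch, 5 higher in D3 spheroids against monolayers and 2 at D11 against D3. Without D3 libraries 4 and 7, 12 interactions between D11 and D3 were found.

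Leaving out 1 library at a time gave 6 to 13 genes higher (33.6% to 50.2% of all genes) and 0 lower with IL-13. For D11 against D3 it gave 0 to 1 higher (1 without D3 library 1) and 38 to 39 lower. For D11 against monolayers it gave 2 higher and 39 lower. In D3 spheroids against monolayers it gave 2 higher and 20 to 31 lower (PCNA -0.0708 to 0.20). Interactions were 42 to 43 for D3 against monolayers, 1 to 2 for D11 against D3 (2 without D3 library 7) and 40 to 42 for D11 against monolayers. With the replicate block, 39 genes fell between D3 and D11, 39 against monolayers, and 29 in D3 spheroids (PCNA -0.0288). Of 23 same-numbered pairs of groups, 6 had a correlation of deviations above 0.1 (range -0.44 to 0.36). Batch was not taken out of these deviations, so they do not decide whether same-numbered libraries are pairs. Values carry 1 decimal, which limits genes below about 1 TPM.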
